A study of Mus musculus with 12 samples.

Results

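Ribosome biogenesis genes encode the nucleolar machinery that transcribes, modifies, cuts and folds ribosomal RNA and assembles it with ribosomal proteins. Of 52 such genes, named by symbol, 51 were measured, with 100 probe sets among the 32533 of the table, and the table gave 15858 genes in all. A probe set was used where the platform annotation lists exactly 1 gene symbol, and the value of a gene is the mean of its probe sets. Mrto4, a large subunit assembly gene, was not measured because its 1 probe set lists another symbol too. No filter on low values was applied.

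The RNA came from GFP-positive mouse bone marrow cells on 12 Affymetrix arrays, 3 in each of 4 groups. In the R-2HG group, recipients of empty vector cells were given R-2-hydroxyglutarate, the metabolite that mutant isocitrate dehydrogenase 1 (IDH1) produces, at 1 mg per day for 4 weeks. In the IDH1mut group the transplanted cells carried the retroviral vector pSF91-IDH1mut-IRES-GFP, in the IDH1wt group pSF91-IDH1wt-IRES-EGFP, and in the empty vector group the vector without IDH1. The cells of all 4 groups, controls included, were C57BL/6 bone marrow cells immortalised with HoxA9 and transplanted into irradiated mice, and were sorted after 4 weeks. For R-2HG samples the description mentions the IDH1mut vector, but the title, source and construct labels give the empty vector, and the groups here go by those. Whether replicates are separate mice is not stated in the labels, so the p-values stand for the spread among these samples only, and that spread may be technical. Because each probe set's log2 values are centred, they show how arrays differ but not how much RNA was present. The labelled cell type could therefore not be checked for absent markers, and the number of arrays limits the precision.

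Ribosome production starts when RNA polymerase I, with the factors Rrn3 and Ubtf, transcribes the ribosomal DNA into a long precursor. Small nucleolar ribonucleoproteins of the box C/D class then methylate riboses and those of the box H/ACA class convert uridines to pseudouridines, while the small subunit processome folds and cleaves the part that becomes the 40S subunit. Separate sets of factors mature the 40S and 60S particles and accompany them out of the nucleus. Dividing progenitors of the blood make ribosomes at a high rate, and the genes of this machinery are known targets of the MYC transcription factor.

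Expression of the ribosome biogenesis genes was lowest after R-2HG treatment. The R-2HG arrays did not lie together, however: over the 51 genes the median log2 value was -0.47, -0.45 and -0.20 in R-2HG replicates 1, 2 and 3. It was -0.04, -0.02 and 0.00 in IDH1mut, 0.14, 0.16 and 0.12 in IDH1wt, and 0.19, 0.11 and 0.08 in empty vector. All 3 R-2HG arrays lay below all others, the IDH1mut arrays came next, and the IDH1wt and empty vector arrays overlapped. R-2HG replicate 3 was above replicates 1 and 2 in 45 of the 51 genes, and the median SD of a gene within the group was 0.190 in R-2HG, 0.073 in IDH1mut, 0.088 in IDH1wt and 0.079 in empty vector (n = 3 arrays each).

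R-2HG was compared with empty vector to ask what the metabolite does to cells that carry no IDH1 construct. At an adjusted p under 0.05 by limma, adjusted over all genes and called the threshold here, 44 of the 51 genes fell and 0 rose. Of all 15858 genes, 24.3% fell and 16.5% rose in this comparison. The median log2 difference was -0.55 over the 51 genes and 0.00 over all genes, and all 51 differences were below 0, as were those of 49.7% of all genes. In 44 genes every R-2HG array lay below every empty vector array, as it did in 29.8% of all genes. Leaving out any 1 of the 12 arrays kept 37 of the 44 calls, the others being Utp3, Utp18, Imp4, Heatr1, Gnl3, Gnl2 and Ubtf, and brought Rrp9, Noc2l, Polr1a and Polr1b past the threshold in at least 1 of these fits. An F test over the 4 groups called 44 of the 51 genes and 54.6% of all genes. In bulk samples, fewer cells of a type and less RNA per cell cannot be told apart. Each R-2HG array was also set against the 3 empty vector arrays: replicate 1 lay below all of them in 51 of the 51 genes, replicate 2 in 48 and replicate 3 in 46, against 40.8%, 40.7% and 38.7% of all genes. With replicate 3 as the only R-2HG array, 18 genes fell against empty vector (8.09% of all genes fell), with a median of -0.35.

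By their medians, 4 of 7 lists of markers of blood cells also set R-2HG replicates 1 and 2 apart from replicate 3. Over 14 marker genes of mast cells, basophils and eosinophils the median log2 value was -1.77, -1.90 and 0.17 in R-2HG, against 0.00 to 0.02 in empty vector. The summed log2 values of these 14 genes were -28.7, -28.2 and 2.31 in R-2HG, against 1.75 to 3.74 in empty vector. Erythroid markers (16 genes) had a median of -1.84, -1.99 and 0.00 in R-2HG, against -0.94 to -0.68 in empty vector, and dendritic cell markers (16 genes) had -0.57, -0.46 and 0.21, against 0.00 to 0.19. For 17 B cell markers the median was -0.40, -0.35 and -0.15 in R-2HG, against 0.00 to 1.04 in empty vector. The medians of the other 3 lists showed no split of that size. In R-2HG they were 0.14, 0.14 and 0.04 for 13 monocyte and macrophage markers and 0.00, 0.10 and 0.00 for 15 T and NK cell markers. For 17 granulocytic markers they were 0.02, 0.03 and 0.02. The sums did set replicate 3 apart for the granulocytic markers (2.35, 2.22 and -0.54, against -0.53 to -0.29 in empty vector). They did so for the T and NK cell markers too (-3.46, -2.17 and 1.26, against 0.28 to 1.46). For the monocyte and macrophage markers the sums were 0.55, 0.49 and 0.82, against 1.36 to 1.59. In R-2HG replicate 3 the medians of the first 3 marker lists lay above all empty vector arrays, and that of the B cell markers lay below them. The ribosome biogenesis genes were lower than empty vector by a median of 0.35 in that array. The part of these cells in the fall of the ribosome biogenesis genes was not tested.

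**Figure D1:**
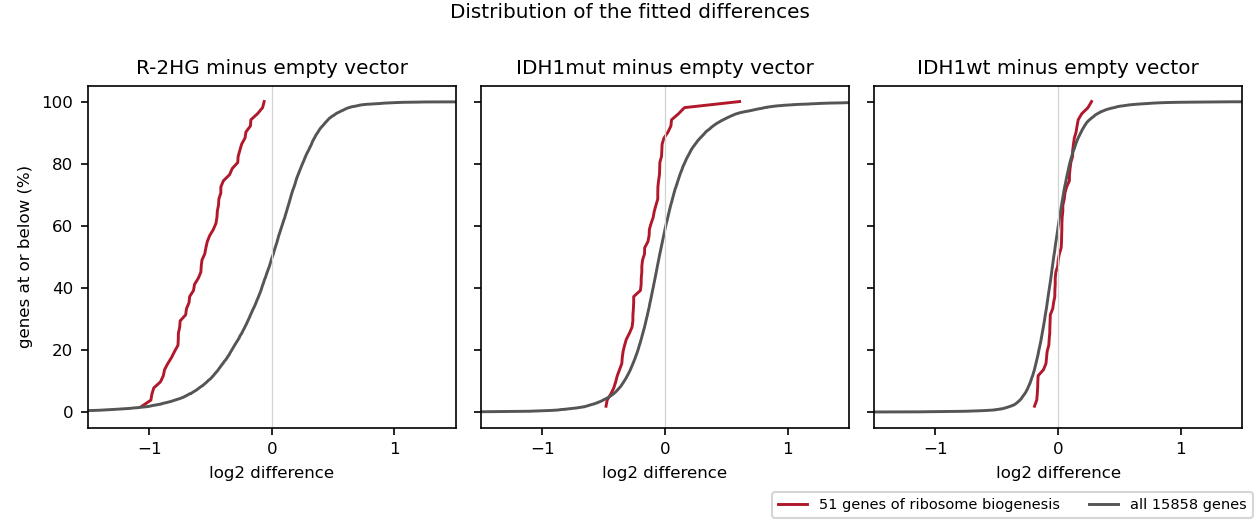
Cumulative share of genes (vertical axis, percent) at or below each fitted log2 difference (horizontal axis), for the 51 ribosome biogenesis genes in red and all 15858 genes in grey. The red curve lies far left of the grey one for R-2HG minus empty vector (medians -0.55 and 0.00), a little left for IDH1mut minus empty vector (-0.17 and -0.05), and close to it for IDH1wt minus empty vector (0.01 and -0.04).

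Promoters of these genes were searched for short sequence motifs. RefSeq promoter windows (GRCm38.p6, from 250 bases before to 50 after the start) were at hand for 43 of the 51 genes, with 52 windows in all because 4 genes had several. The E-box CACGTG, the site of MYC and related proteins, was found in a window of 10 of the 43 genes (23.3%), against 8.09% of 27025 genes with windows. The ETS motif CCGGAAG was in 18 (41.9%, against 9.93%) and the GC box GGGCGG in 31 (72.1%, against 38.2%), searched as exact letters on both strands, with 2 overlaps between sites of different motifs. These are letters in a window and not measured binding, and the 27025 genes were not matched to the 43 in base composition. In each role with an E-box, the E-box gene with the largest absolute difference of R-2HG minus empty vector was chosen for display. That the 4 genes chosen fell in R-2HG is therefore no separate result. Utp20 and Grwd1, with E-boxes 37 and 34 bases past the start, were left out because the stretches shown end before them. Windows around the E-box of the 4 genes are shown 5′ to 3′ with the E-box in capitals, on the plus strand. They lie at chr17:71616172-71616244 for Wdr43 of the processome, chr11:74898044-74898109 for Tsr1 of late 40S maturation, chr11:3963917-3964004 for Pes1 of 60S assembly and chr16:13780591-13780716 for the polymerase I factor Rrn3.
Wdr43: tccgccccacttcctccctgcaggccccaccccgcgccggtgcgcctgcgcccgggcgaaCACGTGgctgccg
Tsr1: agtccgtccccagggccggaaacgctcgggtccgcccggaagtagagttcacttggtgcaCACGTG
Pes1: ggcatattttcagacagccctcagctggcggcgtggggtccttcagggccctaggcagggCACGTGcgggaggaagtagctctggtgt
Rrn3: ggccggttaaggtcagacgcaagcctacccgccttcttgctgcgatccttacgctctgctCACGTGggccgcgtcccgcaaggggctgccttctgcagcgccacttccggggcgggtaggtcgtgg
The E-box begins 17 bases past the annotated start in Wdr43, 24 past it in Tsr1 and 2 past it in Pes1, and at -48 in Rrn3, which has another at -215. Nop56, Nop58 and Wdr12, which also fell in R-2HG, had no E-box in a window. Whether the fall of a gene goes with an E-box was not tested.

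With all R-2HG arrays, the box C/D proteins had the largest median fall of the 7 roles. With replicate 3 as the only R-2HG array, the median fall of the late 40S maturation genes was larger. All 3 box C/D proteins were lower in R-2HG than in empty vector, with a median log2 difference of -0.88. Nop58, a core scaffold of the particle, was at -0.92, -1.15 and -0.36 in R-2HG, at -0.21, 0.00 and 0.12 in IDH1mut, at 0.16, 0.34 and -0.10 in IDH1wt and at 0.27, 0.11 and 0.13 in empty vector. Its log2 difference was -0.98 ± 0.18 for R-2HG minus empty vector (SE of the moderated fit, n = 3 arrays per group, as for all later errors; adjusted p = 0.00122). Nop56, the paired scaffold protein, was at -1.04, -1.01 and -0.39 in R-2HG, at -0.02, 0.04 and 0.09 in IDH1mut, at 0.12, 0.04 and 0.02 in IDH1wt and at 0.05, 0.09 and 0.04 in empty vector. The 3 R-2HG arrays of Nop56 lay below all 9 others, which ran from -0.02 to 0.12, and the difference was -0.88 ± 0.14, adjusted p = 0.000548. Fbl, fibrillarin, the ribose methyltransferase of the particle, was at -0.53, -0.50 and -0.10 in R-2HG, at -0.09, -0.26 and -0.29 in IDH1mut, at 0.11, 0.15 and 0.14 in IDH1wt and at 0.25, 0.01 and 0.04 in empty vector. Its fall of -0.48 ± 0.11 (adjusted p = 0.00585) was the smallest of the 3 and was lost with replicate 3 as the only R-2HG array (-0.20, adjusted p = 0.324), as was that of Nop58 (-0.53, adjusted p = 0.0723). In IDH1mut none of the 3 passed against empty vector, with -0.20 ± 0.18 for Nop58, -0.03 ± 0.14 for Nop56 and -0.32 ± 0.11 for Fbl (adjusted p = 0.0652), which passed in 6 alternatives (adjusted p = 0.014 to 0.0445). The direct test of R-2HG minus IDH1mut passed for Nop56 (-0.85 ± 0.14) and Nop58 (-0.78 ± 0.18) and not for Fbl (-0.16 ± 0.11, adjusted p = 0.272), which passed without R-2HG replicate 3 (-0.30, adjusted p = 0.0206) and with array weights (-0.26, adjusted p = 0.0305).

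All 4 box H/ACA proteins fell in R-2HG against empty vector, with a median of -0.73. Nhp2, a core protein of the pseudouridylation particle, was at -0.81, -0.72 and -0.41 in R-2HG, at 0.05, -0.02 and -0.13 in IDH1mut, at 0.33, 0.16 and 0.17 in IDH1wt and at 0.40, 0.32 and 0.30 in empty vector. It had the smallest adjusted p of the 51 genes in this comparison (-0.99 ± 0.10, adjusted p = 7.04e-05), and it also fell in IDH1mut against empty vector (-0.37 ± 0.10, adjusted p = 0.0198). That call in IDH1mut was lost without IDH1mut replicate 3 or empty vector replicate 1 or 2 (adjusted p = 0.0509 to 0.0758), and at 1 of its 2 probe sets (adjusted p = 0.0534). Nhp2 was lower in R-2HG than in IDH1mut too (-0.62 ± 0.10, adjusted p = 0.00184). Gar1, a partner of dyskerin in the same particle, was at -0.91, -0.92 and -0.25 in R-2HG, at -0.12, -0.17 and -0.19 in IDH1mut, at 0.22, 0.26 and 0.26 in IDH1wt and at 0.29, 0.07 and -0.06 in empty vector. Replicates 1 and 2 carried most of the fall of Gar1 (-0.79 ± 0.15, adjusted p = 0.00169), which was -0.35 in replicate 3 alone (adjusted p = 0.0956). Nop10, a small protein bound to the catalytic domain of dyskerin, was at -0.42, -0.40 and -0.13 in R-2HG, at -0.14, -0.10 and -0.23 in IDH1mut, at 0.32, 0.07 and 0.10 in IDH1wt and at 0.30, 0.40 and 0.27 in empty vector. It fell under both exposures, by 0.64 ± 0.09 in R-2HG and by 0.48 ± 0.09 in IDH1mut against empty vector, while R-2HG minus IDH1mut did not pass (-0.16 ± 0.09, adjusted p = 0.204). That difference was -0.25 and passed without R-2HG replicate 3 (adjusted p = 0.0411) and with array weights (adjusted p = 0.0236). Dkc1, dyskerin, the pseudouridine synthase itself, was at -0.76, -0.84 and -0.20 in R-2HG, at -0.19, 0.01 and 0.02 in IDH1mut, at 0.05, 0.20 and 0.06 in IDH1wt and at 0.21, 0.03 and -0.02 in empty vector. Its fall in R-2HG was -0.68 ± 0.14, adjusted p = 0.00335 against empty vector, it did not pass in replicate 3 alone (adjusted p = 0.201), and IDH1mut gave -0.13 ± 0.14.

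The 3 nucleolar phosphoproteins also fell in R-2HG against empty vector. Nolc1, a chaperone of small nucleolar ribonucleoproteins, was at -0.85, -1.07 and -0.13 in R-2HG, at 0.00, 0.05 and 0.07 in IDH1mut, at 0.18, 0.34 and 0.27 in IDH1wt and at 0.30, 0.06 and 0.05 in empty vector. Replicate 3 of Nolc1 stood well above replicates 1 and 2, and the fall (-0.82 ± 0.18, adjusted p = 0.00414) did not pass with it alone (-0.26, adjusted p = 0.181). Npm1, nucleophosmin, an abundant histone and ribosome chaperone that is often mutated in human myeloid leukaemia, was at -0.58, -0.59 and -0.25 in R-2HG, at -0.22, -0.19 and -0.08 in IDH1mut, at 0.19, 0.01 and 0.02 in IDH1wt and at 0.12, 0.13 and 0.04 in empty vector. Its fall from empty vector was -0.57 ± 0.09, adjusted p = 0.000779 for R-2HG, while -0.26 ± 0.09 for IDH1mut did not pass (adjusted p = 0.0726) but did in 6 alternatives (adjusted p = 0.0219 to 0.0398), a second quantile normalization and array weights among them. The IDH1mut arrays of Npm1 lay between the other groups without overlap. Ncl, nucleolin, which binds the nascent precursor, fell by 0.42 ± 0.10 against empty vector and by 0.69 ± 0.10 against IDH1wt, since the IDH1wt arrays were the highest for this gene (0.20, 0.28 and 0.20, against 0.01, -0.01 and -0.14 in empty vector).

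Of the 14 genes of the small subunit processome, 12 fell in R-2HG against empty vector. The median difference of -0.38 over the 14 was the smallest of the 7 roles with all R-2HG arrays. Utp20, a large scaffold protein, was at -0.46, -0.55 and -0.24 in R-2HG, at -0.29, -0.26 and 0.18 in IDH1mut, at 0.56, 0.45 and 0.33 in IDH1wt and at 0.36, 0.40 and 0.29 in empty vector. Utp20 fell against empty vector under both exposures, by 0.76 ± 0.12, adjusted p = 0.000703, under R-2HG and by 0.47 ± 0.12, adjusted p = 0.0173, under IDH1mut, where replicate 3 was the highest. The IDH1mut call of Utp20 was lost without IDH1mut replicate 1 or 2 or empty vector replicate 2 (adjusted p = 0.0585 to 0.0683). Noc4l and Nop14 are homologues of yeast proteins that bind each other. Noc4l was at -0.96, -0.82 and -0.20 in R-2HG, at 0.12, 0.01 and 0.10 in IDH1mut, at 0.04, 0.15 and 0.18 in IDH1wt and at 0.07, 0.13 and 0.07 in empty vector. Nop14 was at -0.59, -0.41 and -0.29 in R-2HG, at 0.10, 0.06 and 0.03 in IDH1mut, at -0.03, 0.10 and 0.20 in IDH1wt and at 0.31, 0.00 and 0.05 in empty vector. Both fell in R-2HG, Noc4l by 0.75 ± 0.15 and Nop14 by 0.55 ± 0.10, and neither passed against empty vector in IDH1mut (-0.01 ± 0.15 and -0.05 ± 0.10). Neither of these falls passed in replicate 3 alone (adjusted p = 0.0903 and 0.0755), nor did that of Utp20 (adjusted p = 0.0528).

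Smaller falls were seen in the rest of the processome. Wdr43 (-0.43 ± 0.10), Wdr75 (-0.44 ± 0.09) and Heatr1 (-0.26 ± 0.08) belong to a subcomplex that also takes part in ribosomal DNA transcription. Utp6 (-0.51 ± 0.08) and Utp18 (-0.32 ± 0.09) belong to another, and Imp3 (-0.42 ± 0.08) and Imp4 (-0.28 ± 0.08) bind the U3 small nucleolar RNA complex. Dcaf13 (-0.34 ± 0.07) and Utp3 (-0.28 ± 0.09), homologues of yeast Sof1 and Sas10, completed the 12. In IDH1mut against empty vector 5 of the 14 passed, all lower (12.1% of all genes fell): Utp20, Utp6 (-0.26 ± 0.08), Imp3 (-0.26 ± 0.08), Heatr1 (-0.33 ± 0.08) and Rrp9 (-0.27 ± 0.09). Utp6 was at -0.36, -0.32 and -0.15 in R-2HG, at 0.06, -0.02 and -0.14 in IDH1mut, at 0.23, 0.23 and 0.23 in IDH1wt and at 0.20, 0.24 and 0.25 in empty vector. Heatr1 was at -0.11, -0.25 and -0.15 in R-2HG, at -0.22, -0.38 and -0.12 in IDH1mut, at 0.06, 0.15 and 0.14 in IDH1wt and at 0.06, 0.12 and 0.08 in empty vector. Of these 5, Heatr1 kept its IDH1mut call without any 1 array, but 2 of its probe sets did not pass when fitted singly (adjusted p = 0.0601 and 0.206). For Utp6 the 3 groups R-2HG, IDH1mut and empty vector kept their order with no overlap, whereas for Heatr1 the arrays of R-2HG and IDH1mut overlapped. The 3 probe sets of Utp6 disagreed in IDH1mut minus empty vector, at -0.82, -0.12 and 0.16, of which the first passed. Rrp9, a protein of the U3 particle, and Nat10, an acetyltransferase of ribosomal RNA, were the 2 that did not pass in R-2HG (-0.22 ± 0.09, adjusted p = 0.0598 and -0.08 ± 0.10, adjusted p = 0.577). Nat10 was at -0.26, -0.11 and 0.14 in R-2HG, at -0.04, -0.11 and 0.00 in IDH1mut, at -0.08, 0.00 and -0.16 in IDH1wt and at 0.14, -0.07 and -0.08 in empty vector, with all 4 groups overlapping.

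All 4 genes of late 40S maturation fell in R-2HG against empty vector, and all 4 were lower in R-2HG than in IDH1mut too, Rrp12 just past the threshold (adjusted p = 0.0496). Tsr1, a GTPase-like factor of the 40S precursor, was at -0.89, -0.90 and -0.23 in R-2HG, at -0.07, -0.02 and 0.16 in IDH1mut, at 0.33, 0.30 and 0.40 in IDH1wt and at 0.35, 0.16 and 0.12 in empty vector. It fell by 0.89 ± 0.15 against empty vector (adjusted p = 0.000916) and kept its call in replicate 3 alone (-0.44, adjusted p = 0.0465). Rrp12, which in yeast takes part in the export of precursor particles, was at -0.26, -0.57 and -0.16 in R-2HG, at 0.00, 0.09 and -0.04 in IDH1mut, at 0.21, 0.44 and 0.46 in IDH1wt and at 0.62, 0.49 and 0.20 in empty vector. The empty vector arrays of Rrp12 were scattered and overlapped those of IDH1wt. Its difference from empty vector was -0.76 ± 0.13, adjusted p = 0.000744 for R-2HG, and -0.42 ± 0.13, adjusted p = 0.0322 for IDH1mut. The IDH1mut call of Rrp12 was lost on leaving out any 1 of the IDH1mut arrays or empty vector replicate 1 or 2 (adjusted p = 0.0519 to 0.119), and that of R-2HG minus IDH1mut in 14 of 22 alternatives besides the fold change minimum (adjusted p = 0.054 to 0.552), 8 of them with 1 array left out. Bysl (-0.58 ± 0.11), the homologue of yeast Enp1, and Ltv1 (-0.46 ± 0.08), which leaves the particle at its last steps, fell in R-2HG and did not pass in IDH1mut (-0.04 ± 0.11 and -0.19 ± 0.08).

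For 60S assembly, 14 of 17 genes fell in R-2HG against empty vector, with a median of -0.58, and 2 fell in IDH1mut. These are 82.4% and 11.8% of the role, against 24.3% and 12.1% of all genes. Wdr12, Pes1 and Bop1 form the PeBoW complex, which is needed to process the large subunit RNA. Wdr12 was at -0.84, -0.90 and -0.36 in R-2HG, at -0.26, 0.17 and 0.11 in IDH1mut, at 0.35, 0.28 and 0.32 in IDH1wt and at 0.38, 0.41 and 0.29 in empty vector. It had the largest fall of the 51 genes (-1.06 ± 0.14, adjusted p = 0.000214), which is a decrease of 52% on the linear scale. Pes1 was at -0.42, -0.36 and -0.25 in R-2HG, at -0.02, -0.01 and -0.07 in IDH1mut, at 0.45, 0.23 and 0.04 in IDH1wt and at 0.44, 0.42 and 0.36 in empty vector. Against empty vector Pes1 fell by 0.75 ± 0.09, adjusted p = 0.000171, under R-2HG and by 0.44 ± 0.09, adjusted p = 0.0057, under IDH1mut, and these 3 groups did not overlap. Its 2 probe sets stood at -0.92 and -0.59 in R-2HG and at -0.26 (adjusted p = 0.0664) and -0.62 in IDH1mut. Bop1, the third member, did not pass against empty vector, with -0.12 ± 0.07, adjusted p = 0.19 for R-2HG and -0.11 ± 0.07 for IDH1mut. A probe set of Bop1 fitted singly did fall in R-2HG against empty vector (-0.41, adjusted p = 0.00152), so the mean hides a difference between its probe sets.

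Grwd1 and Ppan followed Wdr12 in size. Grwd1, whose yeast homologue is a chaperone of the ribosomal protein Rpl3, was at -0.83, -0.77 and -0.34 in R-2HG, at -0.04, 0.00 and -0.04 in IDH1mut, at 0.09, 0.19 and 0.36 in IDH1wt and at 0.51, 0.23 and 0.21 in empty vector. Ppan, the homologue of yeast Ssf1, was at -0.94, -0.96 and -0.27 in R-2HG, at 0.00, -0.02 and 0.03 in IDH1mut, at 0.30, 0.14 and 0.29 in IDH1wt and at 0.21, 0.12 and 0.23 in empty vector. Every R-2HG array was below every other array for both genes, with falls of 0.96 ± 0.13 and 0.91 ± 0.15 against empty vector, and both kept their calls in replicate 3 alone (-0.66 and -0.46). In IDH1mut Grwd1 was at -0.34 ± 0.13, adjusted p = 0.0747, passing in 5 alternatives (adjusted p = 0.0185 to 0.0337), and Ppan at -0.18 ± 0.15, adjusted p = 0.415. Gnl3, nucleostemin, was at -0.87, -1.11 and -0.12 in R-2HG, at -0.04, 0.20 and 0.24 in IDH1mut, at 0.08, 0.14 and 0.05 in IDH1wt and at 0.16, -0.06 and -0.18 in empty vector. It had the widest scatter in R-2HG and was at -0.09 (adjusted p = 0.748) in replicate 3 alone, against -0.67 ± 0.20, adjusted p = 0.0179 with all 3 arrays. Falls in R-2HG between -0.85 (Rrp1b, a nucleolar protein) and -0.25 (Gnl2, a GTPase of the precursor) were called for those 2 genes and for Wdr74, Nop2, Nip7, Nop16, Noc3l, Rrs1 and Ddx18. Of these, Wdr74 is the homologue of yeast Nsa1, and Nop2 methylates cytosines of the large subunit RNA. Rrs1, which in yeast helps to insert the 5S particle, was at -0.47, -0.45 and -0.30 in R-2HG, at -0.34, -0.19 and -0.22 in IDH1mut, at 0.02, 0.21 and 0.16 in IDH1wt and at 0.14, 0.04 and -0.06 in empty vector. It was the other gene of this role that fell in IDH1mut (-0.29 ± 0.08, adjusted p = 0.0249), a call lost without IDH1mut replicate 1 or empty vector replicate 1 or 2 (adjusted p = 0.065 to 0.0935), and its R-2HG and IDH1mut arrays overlapped. Noc2l (-0.17 ± 0.10, adjusted p = 0.193) and Ebna1bp2, the homologue of yeast Ebp2 (-0.06 ± 0.09, adjusted p = 0.606), did not pass in R-2HG. Ebna1bp2 was at -0.10, 0.08 and -0.08 in R-2HG, at -0.12, -0.11 and 0.14 in IDH1mut, at 0.00, -0.13 and 0.02 in IDH1wt and at 0.11, -0.08 and 0.06 in empty vector, with all 4 groups overlapping.

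RNA polymerase I and its factors moved in different directions. In R-2HG against empty vector 4 of the 6 genes fell. Rrn3, which recruits the polymerase to its promoter, was at -0.76, -0.54 and -0.29 in R-2HG, at -0.06, 0.00 and 0.00 in IDH1mut, at 0.27, 0.31 and 0.22 in IDH1wt and at 0.22, 0.24 and 0.24 in empty vector. Polr1c, a subunit shared with RNA polymerase III, was at -0.72, -0.73 and -0.35 in R-2HG, at 0.02, 0.11 and -0.03 in IDH1mut, at 0.19, 0.09 and 0.12 in IDH1wt and at 0.01, 0.17 and 0.13 in empty vector. Both were below all other groups on every R-2HG array and fell by 0.77 ± 0.10 (adjusted p = 0.000182) and 0.70 ± 0.10 (adjusted p = 0.000312), and both kept their calls in replicate 3 alone (-0.53 and -0.46). The helicase Ddx21 fell by 0.70 ± 0.11 and Ubtf, which keeps the ribosomal DNA open for transcription, by 0.45 ± 0.12. Ubtf was at -0.29, -0.15 and 0.06 in R-2HG, at 0.05, -0.05 and -0.09 in IDH1mut, at 0.00, 0.44 and 0.03 in IDH1wt and at 0.46, 0.24 and 0.26 in empty vector. Its empty vector arrays lay above those of R-2HG and IDH1mut, which overlapped, and IDH1mut minus empty vector was -0.35 ± 0.12, adjusted p = 0.0652.

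Polr1a, the largest subunit of the polymerase, went the other way in IDH1mut. It was at -0.42, -0.34 and -0.04 in R-2HG, at 0.49, 0.49 and 0.68 in IDH1mut, at -0.05, 0.16 and 0.08 in IDH1wt and at 0.05, -0.22 and 0.01 in empty vector. The 3 IDH1mut arrays lay above all 9 others, which ran from -0.42 to 0.16. Polr1a rose in IDH1mut against empty vector (0.61 ± 0.11, adjusted p = 0.00245) and against IDH1wt (0.49 ± 0.11, adjusted p = 0.0123, and adjusted p = 0.0507 without IDH1wt replicate 1). It was the only 1 of the 51 genes called higher in any of the 6 comparisons. In R-2HG it did not pass against empty vector (-0.21 ± 0.11, adjusted p = 0.152), but array weights (-0.32, adjusted p = 0.00664) or leaving out R-2HG replicate 3 (-0.33, adjusted p = 0.0246) brought it past the threshold. R-2HG minus IDH1mut was -0.82 ± 0.11, adjusted p = 0.000877. Polr1b, the second subunit of the catalytic core, was at -0.11, 0.12 and -0.13 in R-2HG, at -0.31, -0.23 and -0.23 in IDH1mut, at -0.18, 0.00 and 0.00 in IDH1wt and at 0.10, 0.13 and 0.17 in empty vector. It fell in IDH1mut against empty vector (-0.39 ± 0.08, adjusted p = 0.0054), opposite to Polr1a, and did not pass in R-2HG (-0.17 ± 0.08, adjusted p = 0.114).

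**Figure D2:**
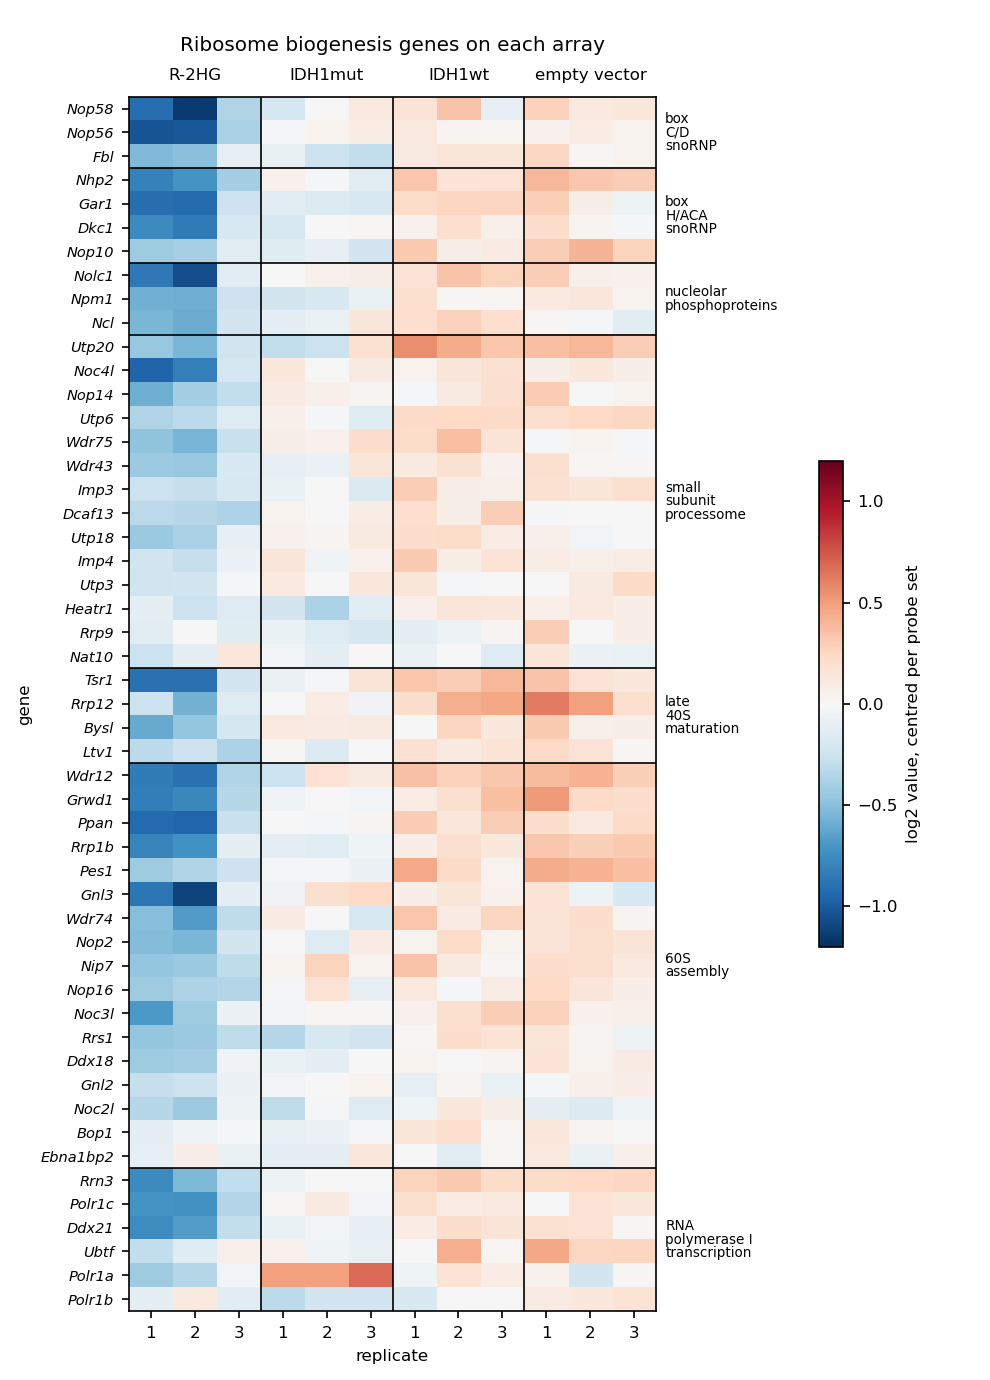
Log2 values, centred per probe set, of the 51 genes (rows, by role and by the size of R-2HG minus empty vector within a role) on the 12 arrays (columns, replicates 1 to 3 of R-2HG, IDH1mut, IDH1wt and empty vector). Blue is below 0 and red above, with the colour scale ending at 1.2 on either side. R-2HG replicates 1 and 2 are the darkest blue columns, replicate 3 is paler, and Polr1a is red in the 3 IDH1mut arrays.

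**Figure D3:**
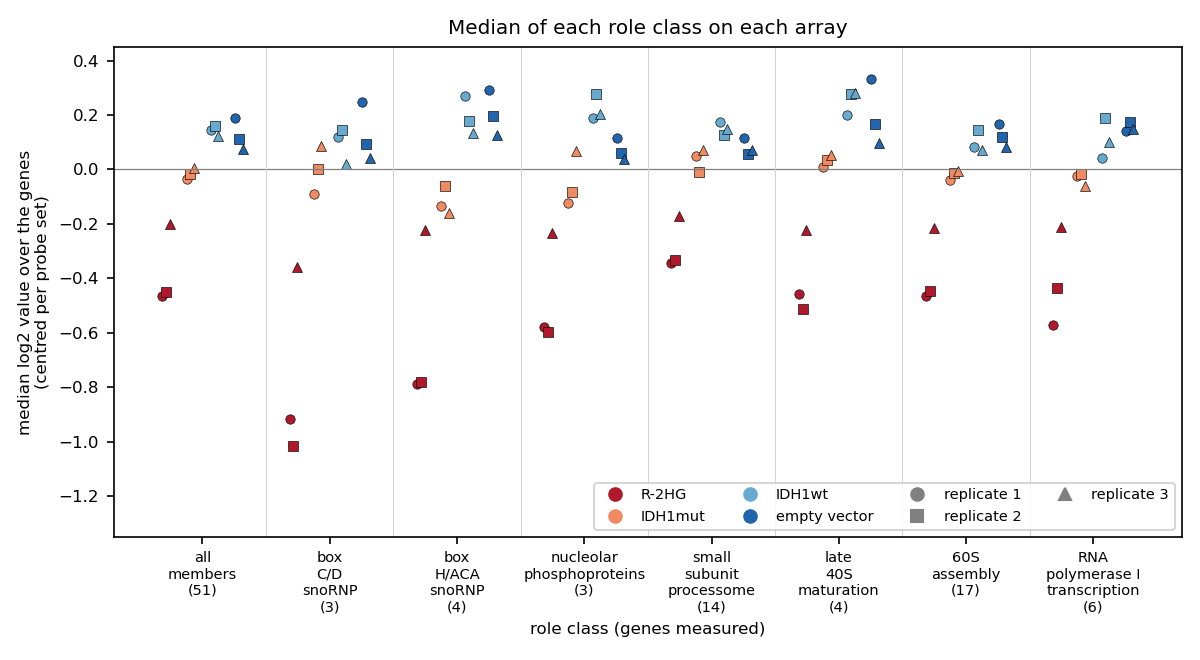
Median log2 value (vertical axis, centred per probe set) of all 51 genes and of each role on every array, with colours for the groups and symbols for the replicates. R-2HG arrays lie lowest in every role, replicate 3 nearest to the other groups, and IDH1mut arrays lie between R-2HG and the 2 control groups for all 51 genes (-0.04 to 0.00).

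Fewer of these genes passed in IDH1mut than in R-2HG. In IDH1mut against empty vector 11 of the 51 genes fell and 1 rose, where 12.1% of all genes fell and 10.5% rose, and the median was -0.17 against -0.05 for all genes. Differences below 0 were found for 45 of the 51 genes and for 58.9% of all genes. The IDH1mut arrays lay below all empty vector arrays in 26 of the 51 genes and in 23.7% of all genes. Of the 12 calls, those of Nop10, Heatr1, Pes1, Polr1a and Polr1b held without any 1 of the 12 arrays, and Fbl, Gar1, Npm1, Wdr12, Grwd1, Rrp1b, Rrn3 and Ubtf came past the threshold in at least 1 of these fits. The count of calls changed when single arrays were left out. Without R-2HG replicate 3 it was 20, of which 19 lower (14.1% of all genes then fell). It was 7 without IDH1mut replicate 1 or replicate 3 or empty vector replicate 1, and 6 without empty vector replicate 2. The share of all genes is not given for these lower counts, so they are no result about the 51 genes. Against IDH1wt, 5 genes fell (Nop10, Utp20, Utp6, Heatr1 and Rrs1) and Polr1a rose, where 7.29% of all genes fell and 8.37% rose, with a median of -0.18. That count of 6 became 14, of which 13 lower, without R-2HG replicate 3 (9.38% of all genes then fell). It became 3 without IDH1wt replicate 1, again with no share of all genes given. The 5 genes that fell against IDH1wt also fell in IDH1mut against empty vector. Utp20, Heatr1 and Rrs1 kept the call against IDH1wt without any 1 array, and Nop10 lost it without 8 of the 12 arrays and in the replicate block (adjusted p = 0.0517 to 0.146).

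Erythroid markers moved with the IDH1mut group as well. Their median log2 value over 16 genes was 0.18, 0.47 and 0.30 in IDH1mut, against -0.94, -0.68 and -0.73 in empty vector, and the sum was 4.06 to 7.47 in IDH1mut, against -12.8 to -12.1 in empty vector. In 14 of the 16 genes every IDH1mut array lay above every empty vector array, as it did in 17.5% of all genes. Of the 16, 4 passed the threshold, all higher, where 10.5% of all genes rose. In IDH1wt the erythroid median was -1.18, 0.28 and -0.16, so those arrays did not lie together. The median of the mast cell, basophil and eosinophil markers was -0.55, -0.09 and -0.03 in IDH1mut, against 0.00 to 0.02 in empty vector. The part of these cells in the IDH1mut differences of the ribosome biogenesis genes was not tested.

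The difference between the exposures was tested directly. In R-2HG minus IDH1mut, 37 of the 51 genes were lower and 0 higher, where 20.3% of all genes were lower and 15.8% higher, and the median was -0.40 against 0.00 for all genes. Every R-2HG array lay below every IDH1mut array in 37 of the 51 genes and in 25% of all genes. The largest differences were those of Nop56 (-0.85 ± 0.14), Gnl3 (-0.83 ± 0.20) and Polr1a (-0.82 ± 0.11). Without any 1 of the 12 arrays 24 of the 37 calls held. For counts with 1 array left out the share of all genes is not given here, so they describe the setting only. This comparison depends most on R-2HG replicates 1 and 2: the count was 24 without R-2HG replicate 1, and 0 with replicate 3 as the only R-2HG array (1.43% of all genes then lower; median -0.17). Against IDH1wt, R-2HG was lower in 44 of the 51 genes and higher in 0 (23% and 21.4% of all genes), with a median of -0.55. It was lower in 19 with replicate 3 alone (6.47% of all genes).

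Patterns over several comparisons were counted from these calls. R-2HG was lower than each of the other 3 groups in 34 of the 51 genes (66.7%), against 10.9% of all genes. Falls against empty vector in both R-2HG and IDH1mut, which share their control arrays, were called for 9 genes (17.6%, against 8.83% of all genes). Of these, Nhp2, Utp6, Rrp12 and Pes1 were lower in R-2HG than in IDH1mut as well. Nop10, Utp20, Imp3, Heatr1 and Rrs1 did not pass between the 2, but single probe sets of Heatr1 passed in both directions. These groupings rest on calls near the threshold: of the first 4, Utp6, Rrp12 and Pes1 lost the call of R-2HG minus IDH1mut with some single array left out (adjusted p = 0.0584 to 0.201), and Nop10 and Utp20 gained it without R-2HG replicate 3 (adjusted p = 0.0411 and 0.0375). The mean of R-2HG was the lowest of the 4 groups in 46 of the 51 genes (34.1% of all genes), the exceptions being Rrp9, Heatr1, Nat10, Ebna1bp2 and Polr1b, and IDH1mut was next lowest in 38 of them (18.9%). Nat10 and Ebna1bp2 were called in none of the 6 comparisons.

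**Figure D4:**
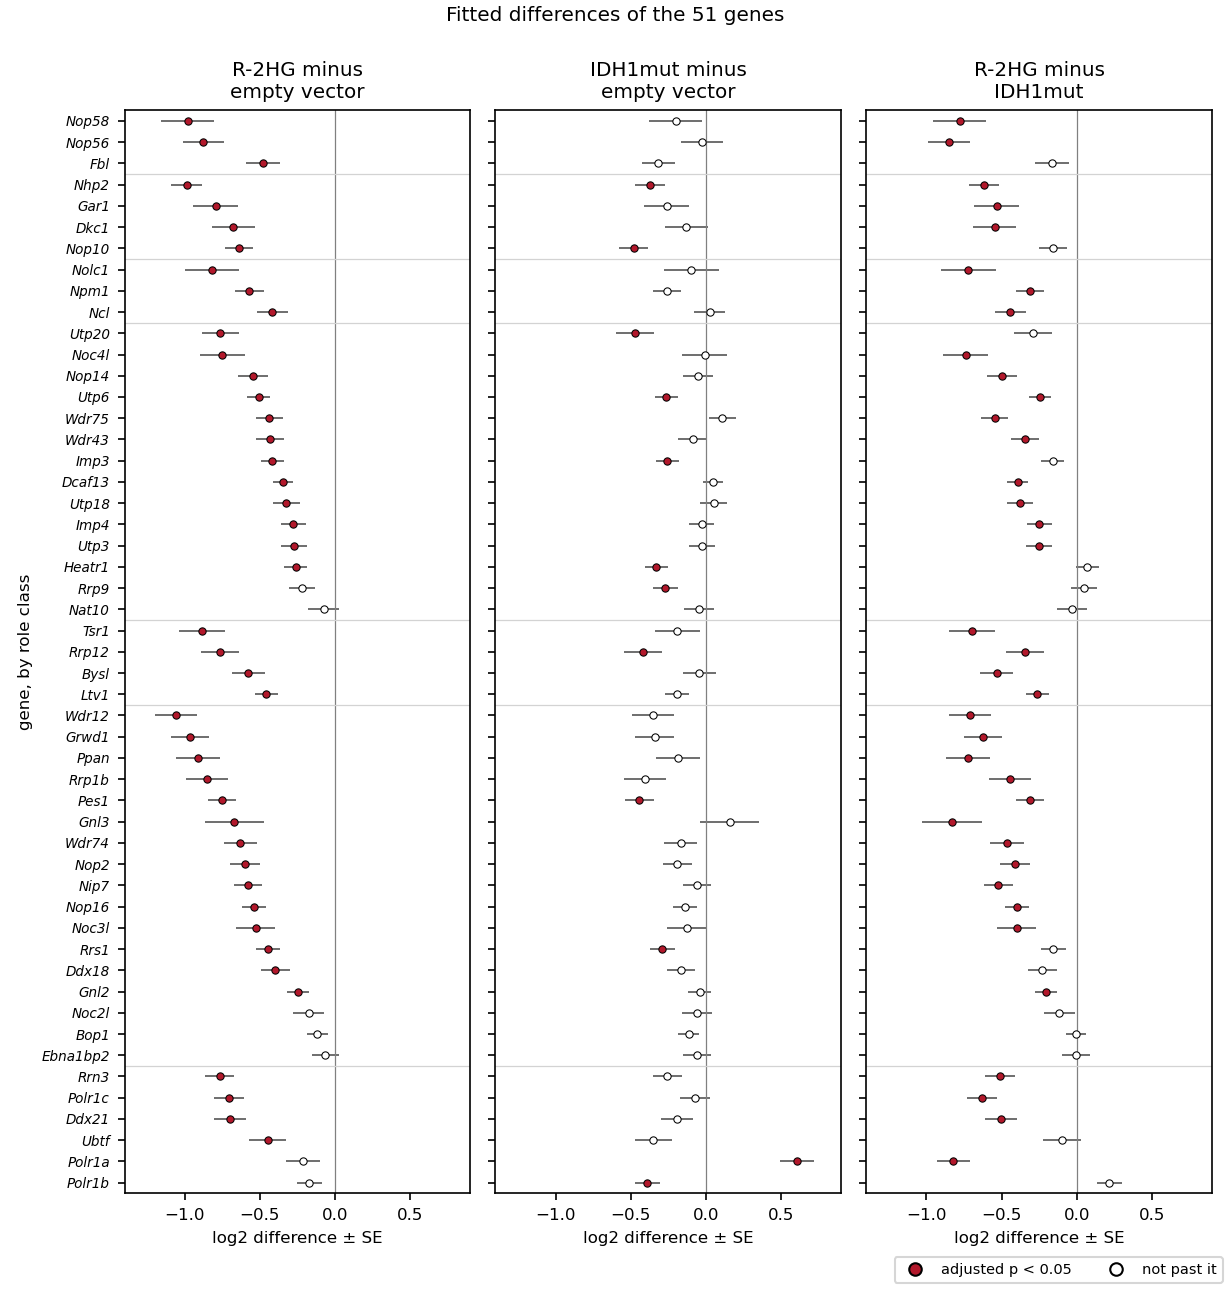
Fitted log2 differences of the 51 genes with their SE (horizontal axes) for R-2HG minus empty vector, IDH1mut minus empty vector and R-2HG minus IDH1mut, genes by role from top to bottom. Filled points pass an adjusted p of 0.05: 44, 12 and 37 of the 51, all below 0 except Polr1a in IDH1mut.

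Wild-type IDH1 did not move these genes past the threshold. In IDH1wt against empty vector limma called 0 of the 51 genes, where it called 1.35% of all genes, 0.561% lower and 0.788% higher. At an unadjusted p under 0.05 there were 4, of which 1 lower, against 16.2% of all genes, and array weights called 2, both higher, where they called 8.75% of all genes. The median was 0.01 against -0.04 for all genes, and the differences ran from -0.19 (Polr1b) to 0.27 (Ncl). Arrays did not overlap in 6 genes, 2 lower and 4 higher (13.6% and 10.2% of all genes).

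Probe sets of the same gene did not always move together. Fitted singly, 77 of the 100 probe sets were lower and 4 higher in R-2HG against empty vector, where 23.8% of all probe sets were lower, and 18 were lower and 4 higher in IDH1mut (10.7% lower). Lower probe sets numbered 65 in R-2HG minus IDH1mut (20.5% of all), 79 in R-2HG minus IDH1wt (22.8%) and 8 in IDH1mut minus IDH1wt (6.44%). All 4 that were higher in R-2HG belong to genes with another probe set that was lower. For Ddx18, an RNA helicase of 60S assembly, the 3 probe sets stood at -0.93, -0.63 and 0.37. For Gnl2 they stood at -0.62, -0.78 and 0.66, for Noc2l at -0.84 and 0.49, and for Nat10 at -0.45 and 0.30, each past the threshold. The means given above for these 4 genes therefore combine opposite differences, and the probe sets may detect different transcripts, which was not tested. Ebna1bp2 had 1 probe set that fell (-0.60, adjusted p = 0.000429) and 2 that did not pass (0.11 and 0.30). Heatr1 had 1 at -0.86 and 2 that did not pass (-0.05 and 0.13), and against IDH1mut these were -0.55, 0.37 and 0.39, all past the threshold. The mean of Heatr1 in R-2HG minus IDH1mut thus combines opposite differences too. The 3 probe sets of Polr1a, in contrast, were all higher in IDH1mut than in empty vector (0.59, 0.68 and 0.56).

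**Figure D5:**
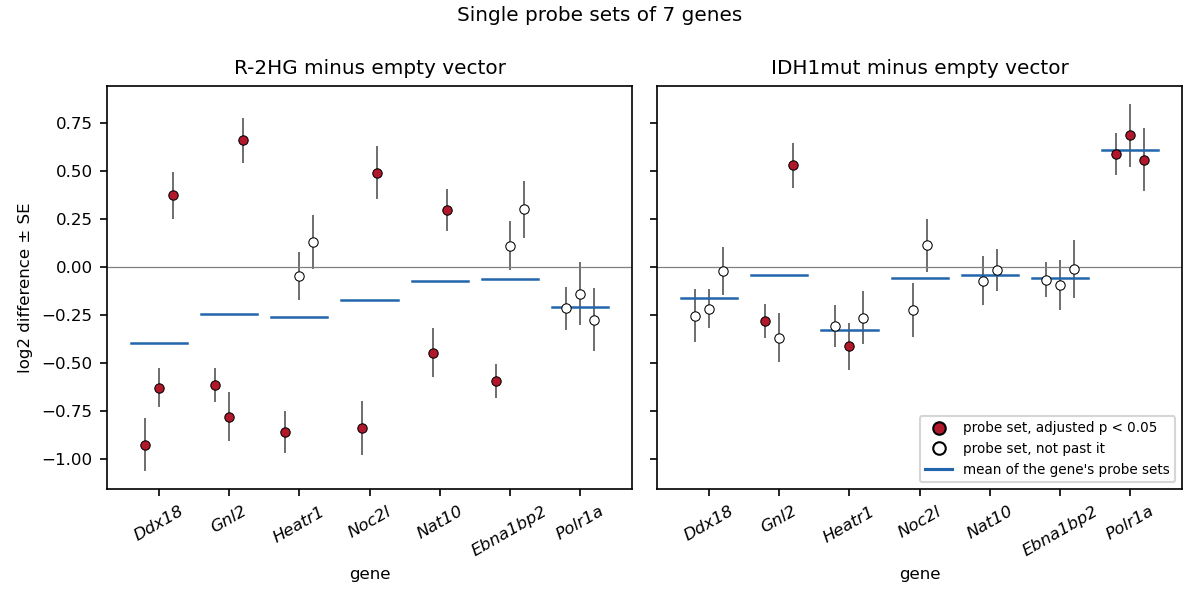
Log2 differences with SE (vertical axis) of the single probe sets of 7 genes, for R-2HG minus empty vector and IDH1mut minus empty vector, filled where the adjusted p is under 0.05, with the mean of the gene's probe sets as a blue line. Ddx18, Gnl2, Noc2l and Nat10 have filled points on both sides of 0 in R-2HG, and Polr1a has 3 filled points between 0.56 and 0.68 in IDH1mut.

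Other genes of the pathway, measured on the same arrays, also fell in R-2HG more often than not. They came from a list of factors outside the 52, which was also chosen with earlier results of these data known. Of 97 measured, 75 fell and 1 rose in R-2HG against empty vector, with a median of -0.42, where 24.3% of all genes fell, and 22 fell and 0 rose in IDH1mut, with a median of -0.16, where 12.1% fell. In R-2HG minus IDH1mut 51 were lower and 1 higher (median -0.24, with 20.3% of all genes lower), and in IDH1wt against empty vector 0 were called (median -0.05, with 1.35% of all genes called). The largest falls in R-2HG were those of Pno1, a late 40S factor (-1.07 ± 0.11), Znhit6, an assembly factor of box C/D particles (-1.02 ± 0.10), and Rsl1d1, a nucleolar protein with a ribosomal protein domain (-1.01 ± 0.11). Pno1 was at -0.94, -1.09 and -0.60 in R-2HG, at 0.04, 0.00 and -0.05 in IDH1mut, at 0.24, 0.04 and 0.11 in IDH1wt and at 0.30, 0.11 and 0.16 in empty vector. Its R-2HG arrays lay far below the rest, and IDH1mut minus empty vector did not pass (-0.20 ± 0.11, adjusted p = 0.239). Znhit6 was at -0.62, -0.73 and -0.33 in R-2HG, at 0.00, -0.01 and 0.12 in IDH1mut, at 0.53, 0.42 and 0.48 in IDH1wt and at 0.50, 0.53 and 0.34 in empty vector. For Znhit6 the IDH1mut arrays lay between those of R-2HG and the controls, and it fell in IDH1mut as well (-0.42 ± 0.10, adjusted p = 0.0101).

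In IDH1mut the largest falls of that list were those of Tcof1, Mybbp1a and Nsa2. Tcof1 encodes treacle, a partner of RNA polymerase I whose loss causes a craniofacial syndrome in humans, and it was at -0.49, -0.54 and 0.01 in R-2HG, at -0.08, -0.32 and -0.33 in IDH1mut, at 0.38, 0.72 and 0.30 in IDH1wt and at 0.55, 0.62 and 0.71 in empty vector. Its difference from empty vector was -0.97 ± 0.15, adjusted p = 0.000485 for R-2HG, and -0.87 ± 0.15, adjusted p = 0.00146 for IDH1mut, and R-2HG and IDH1mut were not called apart (-0.09 ± 0.15, adjusted p = 0.641). Mybbp1a, a nucleolar protein that binds the polymerase I machinery, was at -0.64, -0.63 and -0.19 in R-2HG, at -0.10, -0.22 and -0.30 in IDH1mut, at 0.43, 0.37 and 0.31 in IDH1wt and at 0.54, 0.42 and 0.40 in empty vector. No R-2HG or IDH1mut array of Tcof1 or Mybbp1a overlapped the IDH1wt or empty vector arrays. Mybbp1a fell by 0.94 ± 0.11 in R-2HG and by 0.66 ± 0.11 in IDH1mut against empty vector. Nsa2, a 60S factor, fell by 0.80 ± 0.10 in R-2HG and by 0.54 ± 0.10 in IDH1mut.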

How the data were processed

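The 12 total RNA samples were biotin-labelled and run on Affymetrix mouse arrays, 1 array each, per the labels. The deposited values are log2 expression made with RMA (version not given in the sources used here), per the submitters' processing notes. They are centred per probe set: at most 7 of 12 values lie above 0 and at most 7 below, 83.6% of probe sets hold an exact 0, and every array's median is 0. The reference of the centring is not given in the sources used here.

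Of 32533 probe sets, 28805 list 1 gene symbol, 757 several and 2971 none, and the first kind was averaged to 15858 genes. All 51 Entrez identifiers were in the RefSeq table of GRCm38.p6. A limma model (version 3.58.1, R 4.3.3) with 4 group means was fitted per gene to the 12 arrays, with eBayes shrinkage and no trend. It had 8 residual degrees of freedom and 3.96 prior ones. P-values of the 6 comparisons are two-sided and Benjamini-Hochberg adjusted over all 15858 genes, at a threshold of 0.05. The script was tested on simulated data. Figures were drawn with matplotlib 3.10.9.

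The 52 genes, their roles and all lists, marker lists included, were chosen with earlier results of these data known. Values on every array are given for the 2 (in roles of over 10 genes, 3) largest differences of R-2HG minus empty vector and the largest of IDH1mut minus empty vector in each role, and for genes called against the trend or in no comparison. Those of Dkc1, Utp6, Heatr1, Gnl3, Rrs1, Ubtf and Polr1b were added after their values were seen. Of other pathway genes the 3 largest in either comparison are named. Same-numbered arrays did not deviate together (correlations -0.15 to 0.12 over 18 pairs). Alternatives were a second quantile normalization, array centring, single probe sets, the probe set with the highest SD, an SD filter, eBayes with trend, array weights, a replicate block, a fold change minimum, fits of 6 arrays and arrays left out.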

Additional observations from a re-analysis of the deposited data

How the results depend on the processing

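Differences carry no level, only 3 arrays stand behind each group, and no scan batch was given. The counts of calls in this section stand without the share of all genes called in the same setting, which changes with the setting too. They show how the counts depend on the setting and are not results about the 51 genes. Leaving out 1 array at a time gave 38 to 46 calls among the 51 genes for R-2HG minus empty vector, 6 to 20 for IDH1mut minus empty vector, 24 to 41 for R-2HG minus IDH1mut, 3 to 14 for IDH1mut minus IDH1wt, 40 to 47 for R-2HG minus IDH1wt and 0 to 0 for IDH1wt minus empty vector. The medians ran from -0.63 to -0.49, -0.18 to -0.13, -0.48 to -0.36, -0.20 to -0.17, -0.64 to -0.49 and -0.01 to 0.03 in the same order. With R-2HG replicate 3 as the only R-2HG array, which is then assumed to vary like the other groups, calls were 18 for R-2HG minus empty vector, 0 for R-2HG minus IDH1mut, 19 for R-2HG minus IDH1wt and 12 for IDH1mut minus IDH1wt, and the medians of the first 3 were -0.35, -0.17 and -0.34. A fold change of at least 1.5 left 22 calls for R-2HG minus empty vector, 1 for IDH1mut minus empty vector, 12 for R-2HG minus IDH1mut, 0 for IDH1mut minus IDH1wt and 22 for R-2HG minus IDH1wt. A second quantile normalization gave 13 calls for IDH1mut minus IDH1wt, and array weights 2 for IDH1wt minus empty vector. With the probe set of highest SD the medians were -0.76 for R-2HG minus empty vector, -0.22 for IDH1mut minus empty vector, -0.53 for R-2HG minus IDH1mut, -0.20 for IDH1mut minus IDH1wt and -0.79 for R-2HG minus IDH1wt. For IDH1mut minus IDH1wt the median was -0.16 over single probe sets and -0.21 without the 30% of genes with the lowest SD, a filter that kept 45 of the 51 genes.

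The replicate block, for numbers that share no deviation, gave 44, 9, 35, 4, 43 and 0 calls for R-2HG minus empty vector, IDH1mut minus empty vector, R-2HG minus IDH1mut, IDH1mut minus IDH1wt, R-2HG minus IDH1wt and IDH1wt minus empty vector. Over all 51 genes, 6725 values under the alternatives were counted as unchanged, 130 passed the threshold and 416 lost it. The unchanged include uncalled values of the other sign, such as Noc2l (0.04) and Polr1a (0.02) against empty vector with replicate 3 as the only R-2HG array. A change of sign was counted where the main fit or the alternative passed the threshold. There were 25, all at single probe sets or the probe set of highest SD. For R-2HG minus empty vector these were Gnl2 (0.66), Noc2l (0.49), Ddx18 (0.37), Nat10 (0.30) and Heatr1 (0.13), and for IDH1mut minus empty vector Gnl2 (0.53) and Utp6 (0.16). For R-2HG minus IDH1mut they were Ddx18 (0.39), Nat10 (0.31), Gnl2 (0.13), Utp6 (0.11 both ways), Pes1 (0.034), Rrp1b (0.0017) and Heatr1 (-0.55 both ways). For R-2HG minus IDH1wt they were Ddx18 (0.68), Gnl2 (0.54), Heatr1 (0.24), Noc2l (0.17), Nop16 (0.047), Nat10 (-0.53 both ways) and Ebna1bp2 (-0.48 both ways). The cause of these changes was not tested.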
